A study of Oncorhynchus gorbuscha with 76 samples.

Results

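Skeletal muscle of spawning pink salmon (Oncorhynchus gorbuscha) was compared between the sexes in 7 of the 76 libraries of a study of muscle, head kidney and gonads. They came from 4 spawning females, fish 2, 3, 4 and 5, and 3 spawning males, fish 7, 8 and 9, which are all muscle libraries that the labels place at spawning. The tissue was kept in RNALater, total RNA was extracted with trizol, and polyA libraries were made by Novogene; each library is taken as 1 fish, by its number in the labels. The labels give stage, sex, tissue and fish number, and they give no age, strain or treatment beyond the migratory stage. Muscle of 4 ocean females and 4 ocean males, of 4 river females and 5 river males, and head kidney of 4 spawning females and 4 spawning males served to show where the same sex difference stood in other fish and in another organ.

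Pink salmon stop feeding when they enter fresh water, pay for the run and for ripe gonads out of body stores, and die after spawning. White muscle is the largest protein store of the fish and is broken down during this period, in part through the proteasome, which degrades ubiquitin-tagged proteins. Females put yolk and egg envelope proteins into eggs under the drive of estrogen, while males build a hump, a hooked jaw and a thickened skin rich in connective tissue.

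The 7 libraries held between 15784611 and 18282739 counts, and the 10 most abundant genes took 10.7% to 25.0% of a female library and 15.2% to 16.4% of a male library. Levels are given as CPM, counts scaled to a common library size. On log2 CPM, libraries correlated at r = 0.892 to 0.933 within the females, 0.894 to 0.964 within the males and 0.847 to 0.948 between the sexes. Skeletal muscle markers summed to 3118 to 9257 CPM in the females and 3554 to 8574 CPM in the males, and none of the 24 listed muscle markers was at 0 throughout. Male 7 stood apart from the other males in collagen, nerve and complement genes, and lists in which it is far above the other males are given with and without it. Among the river males, fish 6 carried values far from the other river males, such as 4.71 CPM of gapdh against 956 CPM or more in each of the others, so river results are given with and without it. The deposited values came as 1 table for females and 1 for males, and any difference between the runs that made these tables cannot be told apart from sex. The number of fish limits every test, and p-values describe the spread between these fish.

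Of 20380 genes with enough counts, 16 (0.0785%) differed between spawning females and males at an adjusted p under 0.05 in edgeR's quasi-likelihood test, 8 higher and 8 lower in females. All 16 had no overlap between the 4 females and the 3 males. Only c7b and atg16l2 carry a gene symbol, and the other 14 are named by a LOC number for which the reference table gives no description. At an unadjusted p under 0.05, 5.82% of the genes were higher and 7.94% lower in females. Groups without overlap were found with females above males in 5.49% of the genes and below males in 5.89%, and the median log2 difference over all genes was -0.0011. Leaving out 1 fish moved the count of 16 to 3 without female 2, to 7 without male 7 or male 8 and to 104 without male 9. Over these 7 fits LOC124035630 and LOC124033647 were called in all, LOC124024361 and LOC124033142 in 6 and LOC124008325 in 5. The genes c7b, LOC124044151, LOC124041371, LOC124033016 and LOC124003295 were called in 4, and LOC124008322 in 3. The other calls held in few of them, atg16l2, LOC123998317, LOC124008321 and LOC124024902 in 2 and LOC123997557 in 1. A fit that took its estimate of the spread from 23 muscle libraries of all stages, without river male 6, called far more genes between the same 7 fish, 737 higher (3.11% of 23693) and 817 lower (3.45%). The common biological coefficient of variation was 0.506 in the 7 spawning libraries and 0.34 in 8 ocean muscle libraries. The 23-library fit thus drew in part on less variable ocean fish, and it added no spawning fish. Its further calls may be too easy for the spread of spawning fish, which was not tested, and they are not separate evidence. Below, a call means the fit of the 7 libraries unless the 23-library fit is named, and a gene that was not called is given by its values. The 23-library result is not given for every gene. It called mstnb, esr1, esr2a, glulb, vwf, plin1 and alas2 (adjusted p from 0.0029 to 0.0369), and did not call ghrb, ubb, ctsk or tfa.

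**Figure D1:**
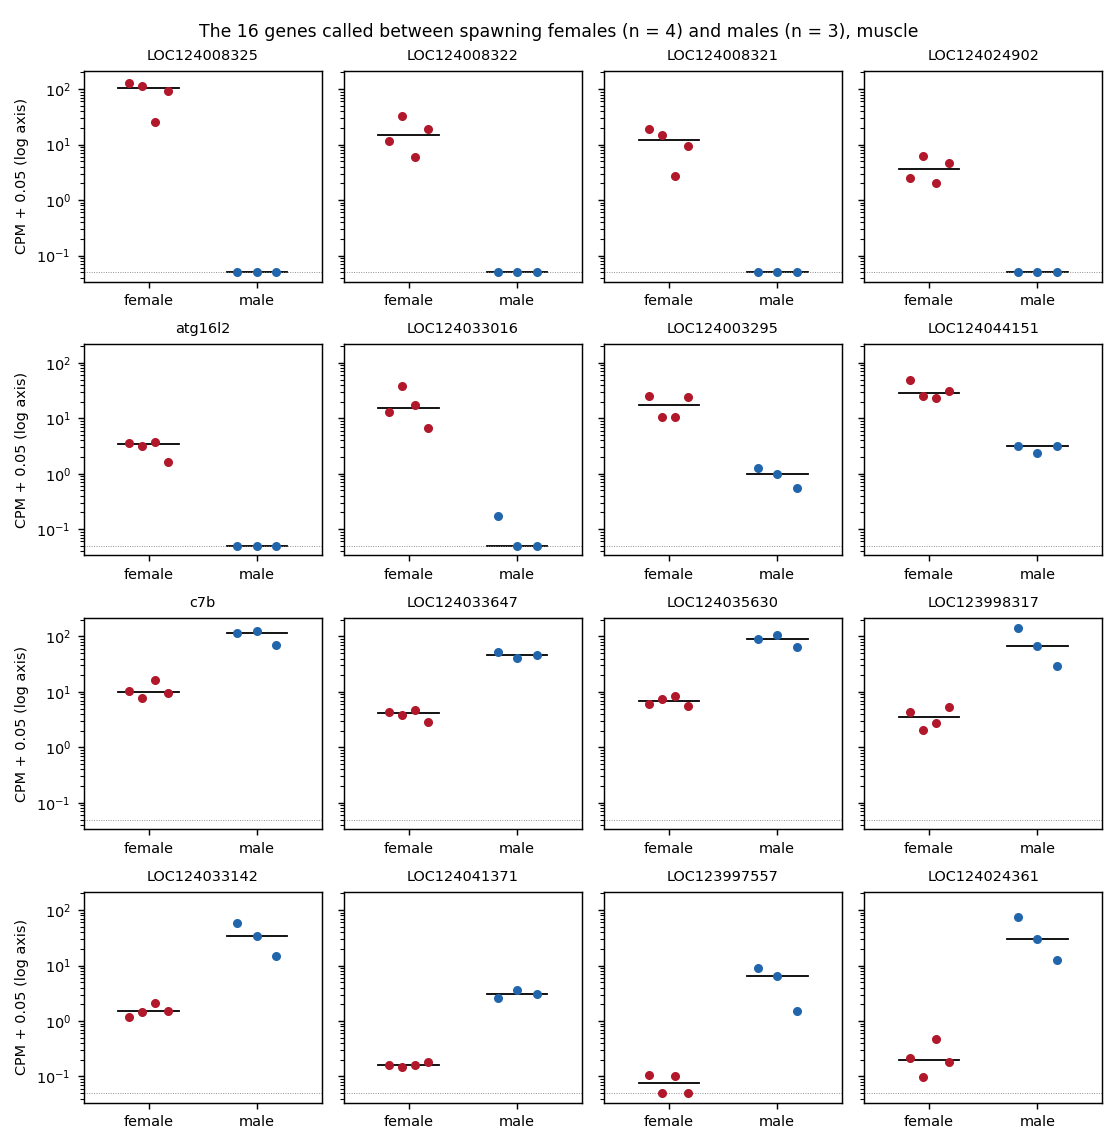
Level of each of the 16 called genes in every spawning muscle library, as CPM plus 0.05 on a log axis, with females in red on the left and males in blue on the right; each point is 1 fish, the black line is the median and the dotted line marks 0 CPM. Females and males overlap in none of the 16 genes, and LOC124008325 sits at 25.3 to 127 CPM in females and at 0 in all 3 males.

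The genes highest in females relative to males were a set with reads in every female and none in any male. LOC124008325 reached 127, 116, 25.3 and 92.9 CPM in females 2, 3, 4 and 5, against 0 CPM in males 7, 8 and 9. With 6494 counts over the females and none over the males, it was at least 1438-fold higher in females, a bound set by 3 counts over the male group (adjusted p = 0.0127, edgeR quasi-likelihood). LOC124008322 had 11.3, 32.5, 5.93 and 18.7 CPM in females and 0 in each male, at least 278-fold higher (adjusted p = 0.0234). No female was near the males in either gene, and female 4 was the lowest female in both, as in the next pair of genes.

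LOC124008321 showed the same pattern, with 18.9, 14.7, 2.64 and 9.21 CPM in females and 0 in each male (at least 183-fold, adjusted p = 0.0469). LOC124024902 had 2.46, 6.24, 1.94 and 4.71 CPM in females and 0 in each male (at least 61.6-fold, adjusted p = 0.0487). In the reference annotation LOC124008325 and LOC124008321 are next to each other, and 2 genes, LOC124008328 and LOC124008320, lie between LOC124008321 and LOC124008322. Such bounds cover counting error only, and near-identical copies among neighbouring genes could share reads. As in every bulk comparison here, fewer cells of a type and less RNA per cell cannot be told apart.

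LOC124008325 reached its highest values in females in the other tissues and stages too, with some overlap. It spanned 117 to 120820 CPM in 5 spawning ovaries and 1.81 to 317 CPM in 5 spawning testes, where male 10 held the 317 CPM more than the lowest ovary, and the other 4 at most 5.97 CPM. In head kidney it had 60.6 to 524 CPM in 4 spawning females and at most 0.0592 CPM in 4 spawning males (adjusted p = 0.0162). In muscle it was at 1.20, 16.8, 6.06 and 112 CPM in river females 1, 7, 8 and 9, against 0 in 4 river males and 2.69 CPM in river male 6, which overlaps with river female 1 through that male. Ocean females had 0.155 to 2.43 CPM and ocean males 0 to 0.162 CPM, again with a slight overlap. LOC124008321 and LOC124008322 were likewise at 3.49 CPM or more in every female head kidney and at 0 in every male one, while LOC124024902 overlapped there. Ovary and muscle are on scales of their own, so these levels order the sexes within a tissue and stage. The oocyte markers, of which buc, figla and sycp3 were at 0, summed to 4.3 to 25.8 CPM in the muscle of spawning females and 3.14 to 7.17 CPM in that of spawning males, with overlap, and their part in the result was not tested.

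**Figure D2:**
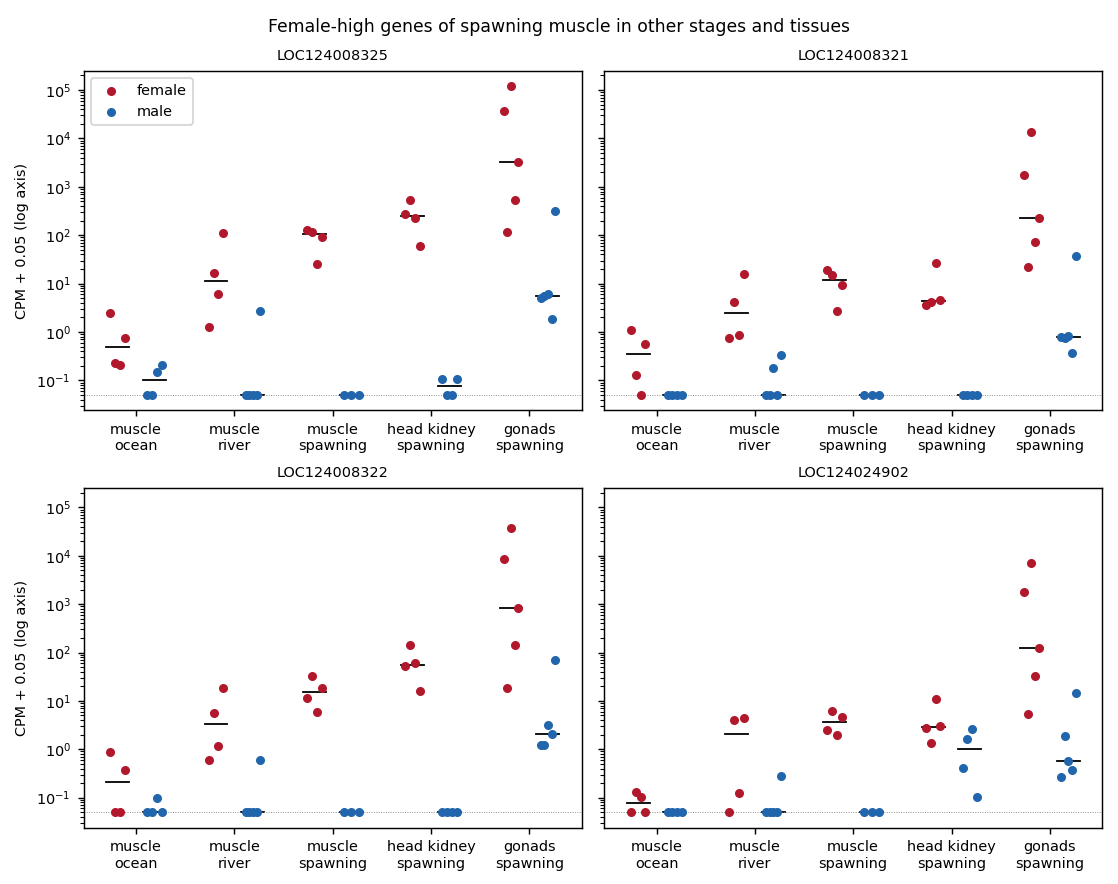
CPM plus 0.05, on a log axis, of 4 genes called higher in spawning female muscle, across muscle of 3 stages, spawning head kidney and spawning gonads; red points are females, blue points males, 1 point per fish, black lines medians, and each tissue and stage was scaled on its own. LOC124008325 spans 117 to 120820 CPM in ovaries and is at 0 CPM in all 3 spawning male muscles.

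Another 4 genes were called higher in females. LOC124003295 had 24.9, 10.7, 10.6 and 24.4 CPM in females, against 1.21, 0.934 and 0.495 CPM in males, a log2 difference of 4.31 ± 0.56 (SE; adjusted p = 0.0234). LOC124044151 had 48.0, 25.2, 23.5 and 31.5 CPM in females, against 3.08, 2.33 and 3.15 CPM in males (log2 3.48 ± 0.40, adjusted p = 0.0132). Every female exceeded every male several times over in both genes. LOC124033016 had 12.7, 37.8, 17.3 and 6.66 CPM in females, against 0.121, 0 and 0 CPM in males, a count ratio of 473 with an exact binomial 95% interval of 131 to 3913 (adjusted p = 0.0187). It was the 1 called gene that the 23-library fit did not call (adjusted p = 0.0721).

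The symbol among them was atg16l2, a relative of the autophagy scaffold gene atg16l1. It had 3.58, 3.12, 3.61 and 1.55 CPM in females and no read in any male, at least 48.3-fold higher (adjusted p = 0.0407). Its level was low in all females, with 218 counts in all, and it stood at 0.449 CPM or less in all ocean and river muscle. Of the 20 tested genes of the autophagy and lysosome list, edgeR called 0, 1 was lower at an unadjusted p under 0.05, and the median log2 difference was -0.05.

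Among the 8 genes called lower in females was c7b, which encodes complement component C7, a part of the pore that complement builds into membranes. It had 10.2, 7.75, 16.1 and 9.55 CPM in females, against 116, 126 and 69.4 CPM in males, so that the highest female lay far below the lowest male. The group means were 10.9 ± 3.62 CPM in females (SD, n = 4) and 104 ± 30.3 CPM in males (SD, n = 3), and the log2 difference was -3.25 ± 0.36 (SE; adjusted p = 0.0132). Its adjusted p was 0.0536 without male 7, 0.078 without male 8 and 0.0715 without female 2, and the log2 difference lay between -3.50 and -3.08 in the 14 alternatives run.

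The 2 genes with the smallest p were LOC124035630 and LOC124033647. LOC124035630 had 5.98, 7.46, 8.46 and 5.58 CPM in females, against 89.9, 107 and 64.8 CPM in males (log2 -3.67 ± 0.32, adjusted p = 0.00476). LOC124033647 had 4.3, 3.80, 4.58 and 2.82 CPM in females, against 53.4, 41.1 and 45.3 CPM in males (log2 -3.58 ± 0.32, adjusted p = 0.00476). Both varied little within each sex, and both were called with each of the 7 fish left out in turn.

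LOC124024361 was nearly absent from females and variable in males. It had 0.168, 0.0488, 0.431 and 0.135 CPM in females, against 75.0, 30.0 and 12.5 CPM in males 7, 8 and 9 (log2 -7.59 ± 0.80, adjusted p = 0.0127). LOC123998317 had 4.3, 2.00, 2.69 and 5.31 CPM in females, against 145, 66.8 and 29.8 CPM in males (log2 -4.49 ± 0.57, adjusted p = 0.0234). LOC124033142 had 1.12, 1.41, 2.10 and 1.48 CPM in females, against 57.5, 34.3 and 14.7 CPM in males (log2 -4.53 ± 0.50, adjusted p = 0.0132). In all 3 genes male 7 was the highest fish and male 9 the lowest male. LOC124041371 averaged 0.113 CPM in females and 3.03 CPM in males (adjusted p = 0.0132). LOC123997557 had 2 counts over the females and 268 over the males, a ratio of 202 in favour of males with a 95% interval of 55.3 to 1674 (adjusted p = 0.0234).

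Of the genes just past the threshold, 75 had an adjusted p between 0.05 and 0.10 in the same test, and several of those with a symbol are given as values, here or with their pathway. The smallest p was that of rasgrp3, a Ras activator that responds to diacylglycerol, with 41.5, 14.6, 32.9 and 33.2 CPM in females, against 2.54, 2.60 and 4.70 CPM in males (log2 3.22 ± 0.47, adjusted p = 0.0508). The muscle genes abraa, which encodes an actin-binding protein, and palld, an actin scaffold, were higher in females. For abraa females had 196 to 543 CPM and males 26.1 to 80.4 CPM (log2 2.81 ± 0.52, adjusted p = 0.0948), and for palld females had 137 to 178 CPM and males 37.4 to 55.2 CPM (log2 1.68 ± 0.29, adjusted p = 0.0836). No male reached the lowest female in any of the 3 genes.

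On the male side, pim2, a survival kinase, had 2.69 to 3.61 CPM in females and 9.14 to 21.8 CPM in males (log2 -2.36 ± 0.38, adjusted p = 0.0671). The transcriptional repressor gene klf12b had 3.90 to 6.72 CPM in females and 14.5 to 17.3 CPM in males (log2 -1.76 ± 0.34, adjusted p = 0.0948). The gene ttc36 had 0.146 to 0.672 CPM in females, against 34.2, 7.34 and 2.10 CPM in males 7, 8 and 9 (log2 -5.48 ± 0.94, adjusted p = 0.0819). For zgc:103559 there was no count in females and 76 counts in males, at least 38.1-fold higher in males (adjusted p = 0.0819). All 7 symbols of this and the preceding paragraph were called by the 23-library fit, with adjusted p from 0.000133 for rasgrp3 to 0.00583 for pim2.

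The 36 gene lists taken for pathways and cell types differed in direction and in how far 1 fish set them. In all but complement, where c7b was the call, no list member was called, so lists are described by their tested members, their median log2 difference and, for the larger ones, the count at an unadjusted p under 0.05. Of all genes, 5.82% were higher and 7.94% lower in females at that threshold.

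**Figure D3:**
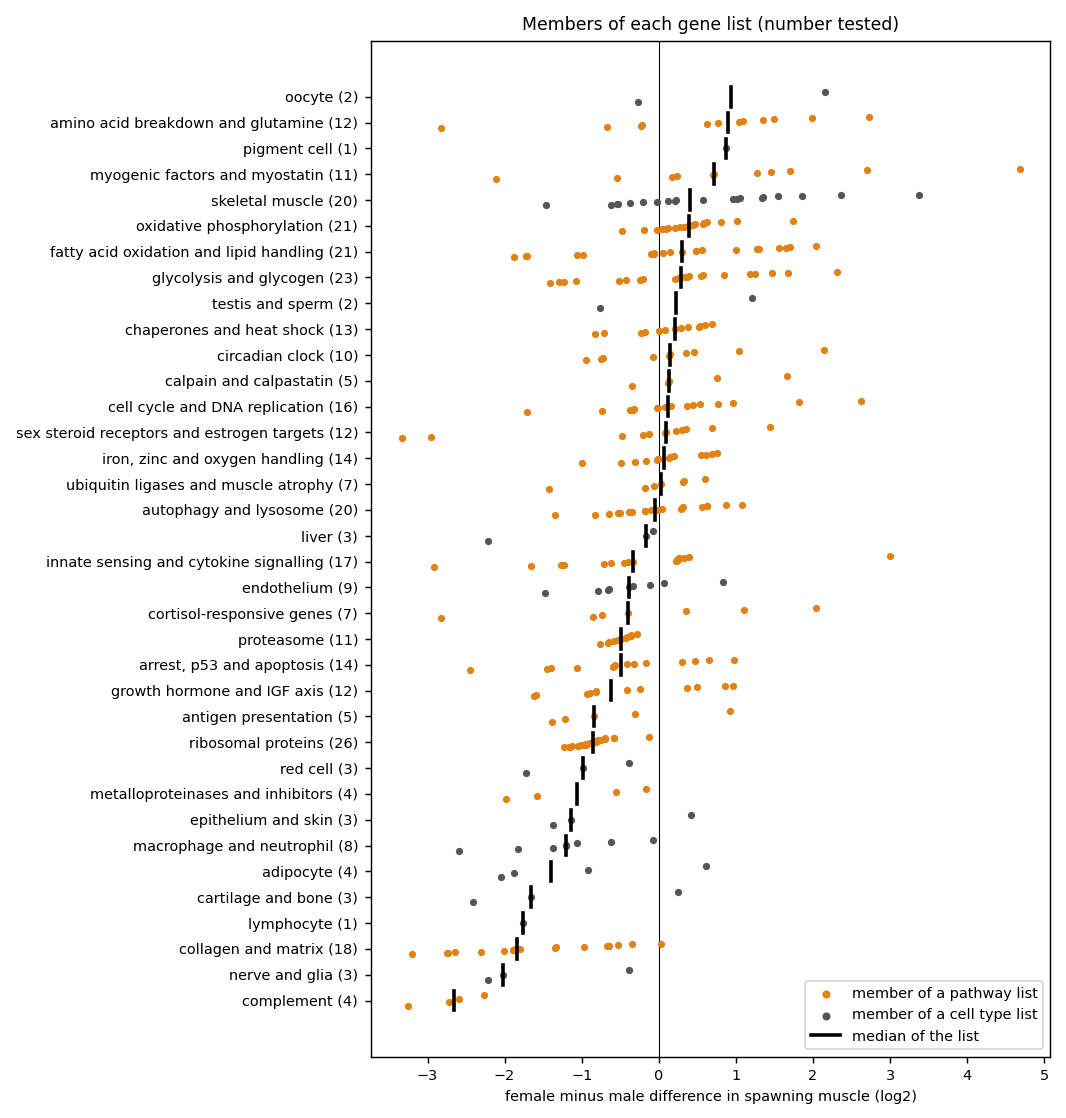
Female minus male log2 difference in spawning muscle of every tested member of each gene list, 1 point per gene, orange for pathway lists and grey for cell type lists, with the list median as a black bar and the number tested in brackets. The 26 ribosomal protein genes form a tight cluster below 0 around -0.85. Complement, also in orange, has the lowest median, -2.65, from 4 genes. That list was added after the values were seen, so its rank is no test.

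Complement genes were lower in females in all 4 tested members of a list of 14 that was added after the values were seen. Their median log2 difference was -2.65, and all 4 had an unadjusted p under 0.05. The paralog c7a had 38, 63.8, 63.6 and 40.6 CPM in females, against 739, 166 and 112 CPM in males (log2 -2.72 ± 0.60, adjusted p = 0.127). The gene c1qc, a chain of the C1q recognition molecule that macrophages make, had 3.83 to 6.63 CPM in females, against 64.8, 13.8 and 16.1 CPM in males (log2 -2.59 ± 0.54, adjusted p = 0.111). The complement inhibitor gene cd59 had 4.69 to 11 CPM in females and 9.34 to 85.3 CPM in males, with overlap. The summed list lay at 63.2 to 91.2 CPM in females and 207 to 1007 CPM in males, without overlap. Without male 7 the median was -1.46 and no member was called. In the 23-library fit, which tested more genes, 4 of 5 members were called lower, as were 3.45% of all genes in that fit.

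The marker list of macrophages and neutrophils moved the same way, with all 8 tested members negative and a median of -1.21. At an unadjusted p under 0.05, 5 members were lower, as were 7.94% of all genes. The list shares c1qc, its member with the smallest p, with the complement list. The pore protein gene mpeg1.1 had 1.06, 0.780, 1.67 and 0.067 CPM in females, against 5.80, 2.07 and 1.79 CPM in males 7, 8 and 9. The NADPH oxidase subunit gene ncf1 had 1.23 to 1.55 CPM in females, against 5.68, 1.87 and 2.04 CPM in these males. In both genes male 7 lay far above the other males. The summed markers were at 67.1 to 100 CPM in females and 94.8 to 222 CPM in males, none of the 10 was at 0, and without male 7 the median was -0.48. Liver markers, of which ttr was at 0, summed to 3.83 to 6.86 CPM in females and 8.63 to 10.5 CPM in males, without overlap, but the median of the 3 tested genes was -0.17. Of these tfa (transferrin) averaged 1.01 CPM in females and 4.74 CPM in males. Their part in the complement values was not tested. In lymphocytes only btk could be tested (log2 -1.76 ± 0.67, adjusted p = 0.311), and cd28, gzma and sh2d1ab were at 0.

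Innate sensing genes were mixed, with 1 of 17 higher and 4 lower at an unadjusted p under 0.05. By sign 8 were positive and 9 negative, with a median of -0.33. The interferon-induced antiviral gene rsad2 had 0.269 to 0.808 CPM in females, against 1.03, 1.87 and 7.55 CPM in males (log2 -2.91 ± 0.76, adjusted p = 0.178). The gene ddx58, which encodes the RNA sensor RIG-I, is not in this list and was picked after its values were seen. It had 15.8 to 28.4 CPM in females and 56.6 to 77.3 CPM in males (log2 -1.46 ± 0.30, adjusted p = 0.111). Neither gene overlapped between the sexes. Of 5 antigen presentation genes, with a median of -0.84, tapbp.1, a peptide loading factor, had the smallest p (log2 -1.38 ± 0.48, adjusted p = 0.282).

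Ribosomal protein genes were lower in females in all 26 tested members, by a similar amount. Their median log2 difference was -0.85, 21 of 26 had an unadjusted p under 0.05, and 23 of 26 had no overlap between the sexes, where 7.94% and 5.89% of all genes did so in this direction. The gene rps2, of the small subunit, had 319, 729, 329 and 508 CPM in females, against 858 CPM or more in every male (log2 -1.13 ± 0.37, adjusted p = 0.254). The gene rps9 had 165, 258, 157 and 246 CPM in females, against 364, 429 and 426 CPM in males (log2 -0.98 ± 0.30, adjusted p = 0.240). The large subunit gene rpl34 had 19.1, 37.5, 22.8 and 39.2 CPM in females, against 85.9, 54.6 and 58.3 CPM in males (log2 -1.16 ± 0.35, adjusted p = 0.233). In each of the 3 genes females 3 and 5 were the higher females and still lay below all males.

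The summed ribosomal list was at 2144 to 3948 CPM in females and 4843 to 6232 CPM in males. When libraries were scaled by their totals alone, the median was -0.78 and all 26 members stayed negative. Leaving out male 7 brought the number with an unadjusted p under 0.05 to 5 of 26, with a median of -0.72. Leaving out male 9 or female 4 brought it to 9 of 26, with medians of -0.85 and -0.70. The shares of all genes at this threshold given above are for the fit of the 7 libraries. In each of these smaller fits a smaller share of all genes passed this threshold, both directions together, than with all 7 libraries. The share of the ribosomal list stayed above that of all genes in each. The share of all genes on the lower side alone is not given for these smaller fits. The 23-library fit called 3 of 26 lower, rpl34 among them (adjusted p = 0.0356), and it called 3.45% of all genes lower.

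**Figure D4:**
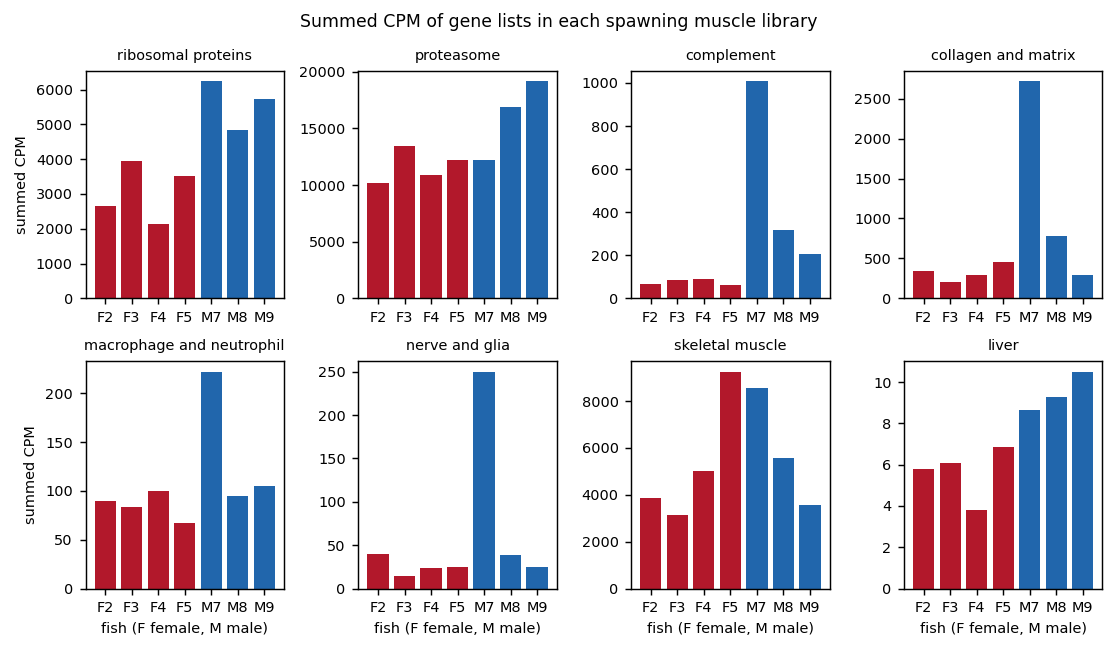
Summed CPM of 8 gene lists in each spawning muscle library, females F2 to F5 in red and males M7 to M9 in blue; bars start at 0 and each panel has its own scale. Ribosomal protein, complement and liver sums are lower in all 4 females than in all 3 males, while collagen and nerve sums are set apart mainly by male 7.

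The protein breakdown genes differed less. All 11 tested proteasome genes were lower in females, with a median of -0.49, but 0 of 11 reached an unadjusted p under 0.05. The catalytic core gene psma4 had 281, 347, 310 and 295 CPM in females, against 367, 493 and 580 CPM in males (log2 -0.64 ± 0.29, adjusted p = 0.364), and the regulatory ATPase gene psmc6 gave -0.58 ± 0.33 (adjusted p = 0.467). The ubiquitin gene ubb averaged lower in females with no overlap (log2 -1.42 ± 0.58, adjusted p = 0.331), and the 7 tested ubiquitin ligase and atrophy genes had a median of 0.03. Summed proteasome genes were at 10210 to 13470 CPM in females and 12250 to 19140 CPM in males, where male 7 fell within the female range. The collagen-degrading cathepsin gene ctsk had 3.17 to 6.26 CPM in females, against 23.5, 6.54 and 4.70 CPM in males 7, 8 and 9 (log2 -1.34 ± 0.56, adjusted p = 0.333), and its difference was -0.30 without male 7. Of 5 tested calpain genes 0 had an unadjusted p under 0.05, with a median of 0.13 and capn15 at 0.76 ± 0.36 (adjusted p = 0.393).

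Collagen and matrix genes were lower in females in 17 of 18 tested members, with a median of -1.83 and 10 members at an unadjusted p under 0.05, but no member separated the sexes. The collagen I chain gene col1a1b had 29.8, 14.5, 20.3 and 52.0 CPM in females, against 485, 78.1 and 24.3 CPM in males 7, 8 and 9 (log2 -2.75 ± 0.85, adjusted p = 0.240). Its partner chain gene col1a2 had 44.1, 21.7, 24.5 and 58.0 CPM in females, against 565, 101 and 27.1 CPM in males. The matrix glycoprotein gene sparc had 45.6 to 104 CPM in females, against 573, 196 and 94.9 CPM in males (log2 -2.00 ± 0.55, adjusted p = 0.205). Male 7 was highest in all 3 genes and male 9 lay within the female range. The keratan sulfate proteoglycan gene lum had 3.27 to 17.4 CPM in females, against 198, 24.7 and 3.77 CPM in males, and its relative ognb 5.36 to 39.5 CPM in females, against 233, 134 and 28.3 CPM in males. The membrane-bound metalloproteinase gene mmp14b gave -1.98 ± 0.59 (adjusted p = 0.233) and -1.11 without male 7, and its list of 4 tested genes had a median of -1.07, and -0.68 without male 7.

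Without male 7 the collagen and matrix median was -0.44, with 13 of 18 members lower in females. In that fit 2 of 18 members were at an unadjusted p under 0.05. This was about the share of all genes that passed it there, both directions together, so the list showed no clear excess at this threshold without male 7. In the 23-library fit, which includes male 7 and tested more genes, 9 of 21 members were called lower, as were 3.45% of all genes in that fit. Markers of several other cell types were highest in the same fish. Nerve and glia markers, with gpm6aa, prph and stmn2a at 0, summed to 14.9 to 39.7 CPM in females and to 250, 38.8 and 25.1 CPM in males 7, 8 and 9; the myelin gene mbpa gave -2.22 ± 0.75 (adjusted p = 0.267), and the list median of -2.02 became -0.31 without male 7. Cartilage and bone markers, 7 of 15 at 0 with the osteoblast factor gene sp7 among them, reached 16.8 CPM in the highest female and 75.8, 11.1 and 6.19 CPM in males 7, 8 and 9. Their member with the smallest p, col2a1b, gave -2.42 ± 1.00 (adjusted p = 0.333) with male 7 and 0.06 without it. How far these cells bear on the collagen values was not tested.

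The remaining marker lists were small in level. Adipocyte markers summed to 4.34 to 13.2 CPM in females and 12.2 to 53.1 CPM in males, with a median of -1.40, and -0.84 without male 7; their lipid droplet gene plin1 gave -2.05 ± 0.58 (adjusted p = 0.211) and -1.38 without male 7. Endothelial markers summed to 75.1 to 112 CPM in females and 84.0 to 218 CPM in males, led by vwf (log2 -1.47 ± 0.42, adjusted p = 0.217), and their median of -0.38 became 0.06 without male 7. Red cell markers, with slc4a1b at 0, summed to 5.46 to 16.1 CPM in females and 10.6 to 50.8 CPM in males, with a median of -0.98 over 3 tested genes. Of these alas2, of haem synthesis, gave -1.72 ± 0.62 (adjusted p = 0.292) and -0.56 without male 9, which had 41.3 CPM. The 3 tested epithelial genes had a median of -1.13, and -0.18 without male 7, and krt18b gave -1.13 ± 0.43 (adjusted p = 0.309) and -0.49 without male 7. The 1 tested pigment cell gene, slc45a2, gave 0.88 ± 0.78 (adjusted p = 0.658). The 2 tested oocyte genes went opposite ways (median 0.94), with cpeb1b, a regulator of stored mRNA, at 2.15 ± 0.76 (adjusted p = 0.286) and slbp2 at -0.27 ± 0.72 (adjusted p = 0.904). So did the 2 tested testis genes (median 0.22), with amh, the anti-Müllerian hormone, at 1.20 ± 0.73 (adjusted p = 0.501) and spata7 at -0.76 ± 0.54 (adjusted p = 0.571). None of these genes was called.

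Glycolysis and glycogen genes went both ways, without a call. Of 23 tested glycolysis and glycogen genes, 5 were higher and 3 lower at an unadjusted p under 0.05, with a median of 0.29 and 8 members negative. The 4 members with the smallest p were all higher in females and belong to glycogen use or synthesis, and all but phkb were picked after their values were seen. Other glycogen genes overlapped between the sexes, such as pygb (log2 0.55 ± 0.49), phkg1a (0.39 ± 0.39), pgm1 (0.57 ± 0.68), gbe1b (0.26 ± 0.42) and gyg1b (-0.21 ± 0.58), with adjusted p from 0.661 to 0.910. The phosphorylase kinase subunit gene phkb had 105, 84.5, 98.2 and 137 CPM in females, against 44.3, 26.3 and 28.8 CPM in males (log2 1.68 ± 0.33, adjusted p = 0.0994). Its partner subunit gene phka1a had 333, 224, 327 and 289 CPM in females, against 143, 125 and 102 CPM in males (log2 1.25 ± 0.30, adjusted p = 0.154). The branching enzyme gene gbe1a had 521, 333, 421 and 752 CPM in females, against 104, 250 and 195 CPM in males (log2 1.47 ± 0.41, adjusted p = 0.211). The sexes did not overlap in any of these, nor in the muscle glycogen phosphorylase gene pygma, which had 15.1, 68.7, 105 and 19.5 CPM in females, against 11.5, 7.40 and 12.5 CPM in males (log2 2.31 ± 0.67, adjusted p = 0.222). The 23-library fit called phkb, phka1a and gbe1a higher (adjusted p = 0.00953, 0.0126 and 0.0281) and did not call pygma.

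Among the glycolytic enzyme genes, aldoaa (log2 -1.29 ± 0.43, adjusted p = 0.267) and pfkpa (-1.41 ± 0.54, adjusted p = 0.309) were below the males without overlap and were not called. At spawning gapdh had 9.39, 4.34, 3.66 and 12.1 CPM in females, against 17.5, 13.5 and 20.8 CPM in males (log2 -1.23 ± 0.46, adjusted p = 0.301). The sexes did not overlap in gapdh, but the difference was not called by either fit. The phosphofructokinase genes pfkma (log2 -0.43 ± 0.43) and pfkmb (0.29 ± 0.52) and the muscle enolase gene eno3 (0.37 ± 0.41) overlapped between the sexes, with adjusted p of 0.702, 0.845 and 0.736.

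The lists of fat use and respiration had positive medians, both of which turned negative without female 5, and no member was called. Fatty acid oxidation and lipid handling had 3 members higher and 3 lower of 21 tested, and a median of 0.30 that turned to -0.16 without female 5. The carnitine palmitoyltransferase gene cpt1ab, which controls fatty acid entry into mitochondria, had 227, 37.2, 141 and 146 CPM in females, against 58.3, 37.5 and 35.9 CPM in males (log2 1.65 ± 0.53, adjusted p = 0.253). The gene pdk4, which holds back glucose oxidation, had 133, 18.5, 134 and 79.1 CPM in females, against 32.4, 16 and 18.3 CPM in males (log2 2.04 ± 0.62, adjusted p = 0.234). In both genes female 3 lay within the male range and the other 3 females above it. The uncoupling protein gene ucp2 had 1.66 to 3.07 CPM in females and 5.69 to 11.3 CPM in males (log2 -1.72 ± 0.42, adjusted p = 0.162). The gene pparg was also lower in females without overlap (log2 -1.88 ± 0.58, adjusted p = 0.240).

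Oxidative phosphorylation had 18 of 21 members higher in females and a median of 0.39, but 1 member at an unadjusted p under 0.05, atp5mc3b of the ATP synthase ring. It had 261, 81.0, 72.8 and 305 CPM in females, against 47.5, 61.0 and 53.2 CPM in males (log2 1.74 ± 0.54, adjusted p = 0.240). Females 2 and 5 were high and females 3 and 4 closer to the males. Without female 5 the list median was -0.06 with 9 of 21 members higher, so its direction rested on that fish.

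Amino acid breakdown genes were split. Of 12 tested, 4 were higher and 1 lower in females at an unadjusted p under 0.05, with a median of 0.90. The genes gnmt, gcat and, below, hgd are not in this list and were picked after their values were seen. The glycine methylating enzyme gene gnmt had 198, 133, 240 and 185 CPM in females, against 47.0, 55.9 and 42.5 CPM in males (log2 1.96 ± 0.32, adjusted p = 0.0671). The threonine breakdown gene gcat, picked after its values were seen, had 49.8 to 70.4 CPM in females and 22.3 to 25.8 CPM in males (log2 1.31 ± 0.28, adjusted p = 0.113). The proline oxidase gene prodha had 240, 337, 245 and 269 CPM in females, against 62.2, 152 and 184 CPM in males (log2 1.04 ± 0.39, adjusted p = 0.305). No male reached the lowest female in these genes, while aldh4a1, the next enzyme of proline breakdown, overlapped (log2 1.99 ± 0.65, adjusted p = 0.262).

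The 2 genes glulb and hgd of amino acid handling stood on the male side. The glutamine synthetase gene glulb had 4.70, 1.37, 1.67 and 6.46 CPM in females, against 49.8, 14.4 and 11.3 CPM in males (log2 -2.83 ± 0.68, adjusted p = 0.156). The tyrosine breakdown gene hgd had 0.293 to 1.01 CPM in females, against 60.1, 8.67 and 2.54 CPM in males (log2 -5.16 ± 0.99, adjusted p = 0.0948). Both were highest in male 7, and neither overlapped between the sexes.

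None of the growth control and muscle structure genes given here was called. Myostatin b (mstnb), a brake on muscle growth, had 5.25, 1.76, 6.25 and 0.471 CPM in females, against 0.121, 0.267 and 0 CPM in males, which is 94, 36, 116 and 7 counts in females and 2, 4 and 0 counts in males. Every female was above every male, and the log2 difference was 4.68 ± 1.13 (adjusted p = 0.156). In its list 3 of 11 tested members were higher and 1 lower, with a median of 0.72; the myogenic factor gene myf5 had 4.02, 3.02, 2.05 and 43.0 CPM in females, against 1.27, 2.13 and 2.60 CPM in males (log2 2.70 ± 1.07, adjusted p = 0.321), and female 5 carried its group. The growth hormone receptor gene ghrb had 236 to 336 CPM in females and 447 to 648 CPM in males (log2 -0.89 ± 0.29, adjusted p = 0.256), in a list of 12 with a median of -0.62. The IGF binding protein gene igfbp1a overlapped (log2 -1.59 ± 0.81, adjusted p = 0.420), and igf1 had 1 count in all females and 1 in all males and could not be tested.

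Skeletal muscle markers had 5 of 20 members higher and 1 lower at an unadjusted p under 0.05, and a median of 0.40. By sign 13 members were positive and 7 negative. In 1 member all females lay above all males, and in 1 member all lay below. The members named here are on the female side. The giant sarcomere protein gene obscnb (obscurin) had 50.5, 40.8, 269 and 67.4 CPM in females, against 30.0, 22.1 and 10.5 CPM in males (log2 2.36 ± 0.71, adjusted p = 0.233). The calcium release channel gene ryr3 had 81.2, 31.0, 64 and 124 CPM in females, against 34.0, 13.8 and 14.3 CPM in males (log2 1.86 ± 0.52, adjusted p = 0.210). The muscle kinase gene alpk3a is a key gene outside this list. For alpk3a females had 221, 63.4, 98.7 and 164 CPM, against 29.3, 32.7 and 30.8 CPM in males (log2 2.14 ± 0.44, adjusted p = 0.111). Of these 3 genes only ryr3 overlapped, between female 3 and male 7, and the 23-library fit called all 3 (adjusted p = 0.0211 for obscnb, 0.0123 for ryr3 and 0.000625 for alpk3a).

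The sex steroid receptor genes read by symbol were esr1 and esr2a, for estrogen, with higher means in males, and pgr, for progesterone, with few counts. The gene esr1 had 2.4, 0.878, 0.970 and 1.68 CPM in females, against 24.3, 7.34 and 2.72 CPM in males (log2 -2.95 ± 0.70, adjusted p = 0.154), and esr2a had 0.391, 0.0975, 0.700 and 0.269 CPM in females, against 9.18, 1.67 and 0.371 CPM in males (log2 -3.34 ± 0.99, adjusted p = 0.233). Male 7 was the highest in both, only esr1 was free of overlap, and without male 7 the log2 differences were -1.75 for esr1 and -1.45 for esr2a. The progesterone receptor gene pgr had 12 counts in the females, 0, 1, 9 and 2 in females 2, 3, 4 and 5. The males had 1 count, in male 8, so the sexes overlapped, and the gene was not tested. The pooled ratio of 7.97, with a 95% interval of 1.18 to 341, covers counting error only and rests largely on female 4. Over the 12 tested members of the steroid list the median was 0.09, with 1 higher and 2 lower at an unadjusted p under 0.05, and the yolk precursor gene vtg3 was at 0 in all 7 libraries. Genes under the symbols ar, esr2b and sdy were not analysed here.

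Genes that respond to cortisol, which is high in spawning salmon, were split. Of 7 tested, 2 were higher and 2 lower at an unadjusted p under 0.05, with a median of -0.40. The higher members included pdk4 (log2 2.04 ± 0.62, adjusted p = 0.234). On the lower side glulb had the smallest p of the list (log2 -2.83 ± 0.68, adjusted p = 0.156). The glucocorticoid receptor partner gene fkbp5 had 172 to 382 CPM in females and 386 to 533 CPM in males (log2 -0.85 ± 0.35, adjusted p = 0.333). The cortisol-induced factor gene klf9 overlapped (log2 -0.74 ± 0.49, adjusted p = 0.544).

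Among the other lists, cell cycle genes had 1 of 16 higher and 1 lower at an unadjusted p under 0.05, and the lower one was cks2, a subunit that binds cyclin-dependent kinases. It had 4.19, 1.37, 3.50 and 3.77 CPM in females, against 15.6, 10.9 and 5.01 CPM in males (log2 -1.72 ± 0.51, adjusted p = 0.230). Of 14 arrest and apoptosis genes 3 were lower, led by the survival gene bcl2l1 (log2 -1.45 ± 0.45, adjusted p = 0.240), with a median of -0.49. The clock repressor gene bhlhe40 had 39.9, 16.1, 17.1 and 78.1 CPM in females, against 12.2, 6.67 and 6.86 CPM in males (log2 2.14 ± 0.60, adjusted p = 0.208), in a list of 10 with a median of 0.14. Chaperones (13 tested, median 0.20, led by bag2 at 0.53 ± 0.30) and iron, zinc and oxygen genes (14 tested, median 0.06, led by the zinc transporter gene slc39a14 at -1.0 ± 0.39) had adjusted p of 0.477 and 0.321 at best.

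Muscle of other fish at earlier stages shows which of these differences were not particular to spawning. The labels were taken as given for ocean and river. The same contrast called 3 of 19298 genes (0.0155%) in ocean muscle, all higher in females, and 2 of 20864 genes (0.00959%) in river muscle, also higher in females. Without river male 6, 12 genes were called in river muscle.

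LOC124003295 was higher in females at every stage. In river muscle it had 4.88, 3.31, 5.55 and 8.95 CPM in females and at most 0.224 CPM in males (log2 5.23 ± 0.42, adjusted p = 0.00161, and 5.45 ± 0.44 without male 6). In ocean muscle it had 1.91 to 6.31 CPM in females and at most 0.299 CPM in males (log2 4.71 ± 0.72, adjusted p = 0.189). With 4.31 ± 0.56 at spawning, the interaction of sex and stage between spawning and ocean was -0.34 ± 0.89.

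Among 17860 genes tested at all 3 stages, 17 were higher and 17 lower in females at an unadjusted p under 0.05 at each stage. The shares past that threshold on the higher side were 5.72% at spawning, 3.65% in the ocean and 1.66% in the river, and on the lower side 7.5%, 3.58% and 1.64%. The 58 genes higher at both spawning and ocean were 5.68% of the spawning list and 8.91% of the ocean list, and the 122 lower at both were 9.1% and 19.1% of these lists. Without river male 6 the river shares were 4.06% and 3.41%, and 27 genes were higher and 31 lower at all 3 stages.

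Genes with a symbol on these common lists, before leaving out river male 6, were arl13a, of cilia, and slc25a5, a mitochondrial ADP/ATP carrier, on the female side. On the male side they were cks2, esr2a, col1a1b, col1a2, col5a2a, cahz, a carbonic anhydrase, ckba, a creatine kinase, and si:ch211-159i8.4. For arl13a the log2 difference was 1.49 ± 0.60 at spawning, 1.55 ± 0.39 in ocean and 1.18 ± 0.32 in river muscle. For cks2 it was -1.72 ± 0.51 at spawning, -1.80 ± 0.48 in ocean and -2.34 ± 0.42 in river muscle. For both genes the 3 values differed by less than their standard errors together. The stages share no library, but these lists hold only genes past the threshold in 1 direction at each stage. Agreement between stages was therefore set in part by the choice of genes. With all libraries of a stage, none of the genes with a symbol on these lists was called at any stage. The smallest adjusted p was 0.328 for arl13a and 0.230 for cks2, both at spawning. LOC124003295, also on the female list, was called at spawning and in the river. Without river male 6, LOC123993749 and LOC124042839 of the same list were also called in the river.

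**Figure D5:**
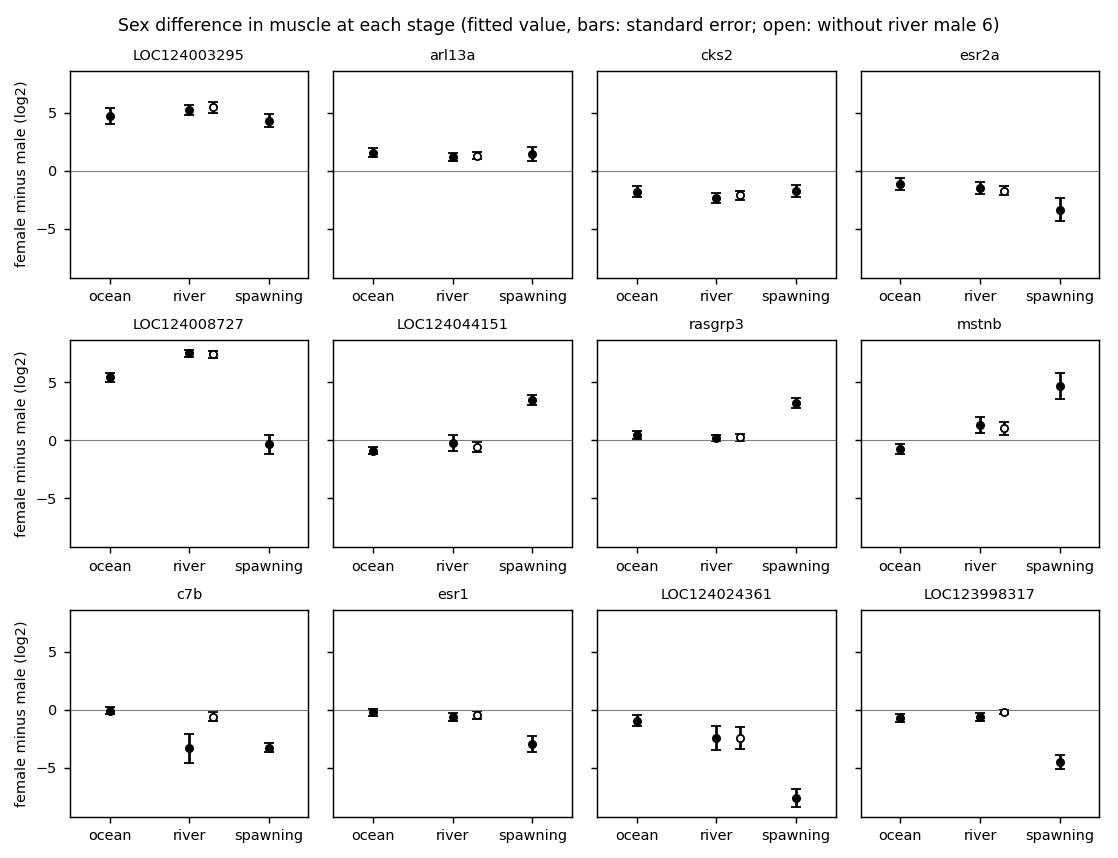
Female minus male log2 difference in muscle at ocean, river and spawning for 12 genes, as the fitted value with its standard error; filled points use all libraries of a stage and open points leave out river male 6. LOC124003295, arl13a and cks2 keep their direction at all 3 stages, LOC124008727 differs in ocean and river only, and LOC124044151, rasgrp3 and LOC123998317 stand out at spawning.

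A test of the interaction, the sex difference at spawning minus that in the ocean over 15 libraries, called 3 of 22594 genes (0.0133%). LOC124044151 gave 4.42 ± 0.53 (adjusted p = 0.0067), since ocean females had 16.7 to 37.3 CPM and ocean males 31.5 to 75.2 CPM while spawning males were at 2.33 to 3.15 CPM. The gene c7b gave -3.14 ± 0.43 (adjusted p = 0.0194), with 1.29 to 1.99 CPM in ocean females and 0.980 to 2.27 CPM in ocean males. LOC124024361 gave -6.56 ± 0.94 (adjusted p = 0.0214), with 2.52 to 6.11 CPM in ocean females and 2.61 to 12.1 CPM in ocean males. In the river, c7b was at 2.05 CPM or less in every fish but male 6, which had 41.4 CPM (log2 -3.32 ± 1.26, and -0.58 ± 0.39 without male 6). None of the 3 interactions was called in a fit of all 24 muscle libraries, and 2 of 3 were called by limma-voom. Without spawning male 7 or male 8 the interaction test called 0 genes, and without male 9 it called 55.

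Several genes had an interaction just past the threshold, among them rasgrp3 (2.80 ± 0.54, adjusted p = 0.0716), abraa (3.12 ± 0.58, adjusted p = 0.0716), gnmt (2.74 ± 0.49, adjusted p = 0.0608) and mstnb (5.45 ± 1.13, adjusted p = 0.0863). For mstnb ocean females had 1.40 to 2.55 CPM and ocean males 1.06 to 5.32 CPM.

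LOC124008727 separated the sexes in the ocean and river but not at spawning. It had 30.4 to 50.7 CPM in ocean females and 0.324 to 1.42 CPM in ocean males (log2 5.42 ± 0.37, adjusted p = 0.000465), and 50.7 to 76.4 CPM in river females and 0.267 to 0.639 CPM in river males (log2 7.49 ± 0.33, adjusted p = 6.56e-06). Without river male 6 the river difference was 7.41 ± 0.29. At spawning it had 10.6, 4.58, 7.97 and 3.97 CPM in females, against 18.3, 6.8 and 0.557 CPM in males, which overlap (log2 -0.34 ± 0.82, adjusted p = 0.893). The interaction was -5.67 ± 0.95 with an adjusted p of 0.0608. LOC123990184, at 6.55 to 25.0 CPM in ocean females and 0 in ocean males (adjusted p = 0.0169), had 19 counts over the spawning females and 0 over the spawning males. The counts were 10, 0, 5 and 4 in spawning females 2, 3, 4 and 5, so female 3 was level with the males. The pooled bound of 4.21-fold in favour of females covers counting error only. LOC123990185 also had 19 counts over the spawning females and 0 over the spawning males, after 4.00 to 13.0 CPM in ocean females and at most 0.0544 CPM in ocean males (adjusted p = 0.00194), and neither gene had enough counts for a test at spawning.

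Head kidney of spawning fish, the blood-forming and cortisol-producing organ, shared 1 call with muscle. Of 24386 genes 2 (0.0082%) were called, both higher in females, and LOC124008325 was 1 of them. The other, LOC124025633, had 16.6 to 36.2 CPM in the head kidney of females and 0 in that of males (adjusted p = 0.0336). In spawning muscle it had 13.5, 25.0, 50.0 and 29.5 CPM in females, against 0.0604, 85.0 and 0 CPM in males 7, 8 and 9, so that 1 male was the highest fish (log2 0.06 ± 1.56). That fish, male 8, has no head kidney library, and without it the log2 difference of LOC124025633 in muscle was 9.61. The complement gene c7b gave -0.75 ± 0.25 in head kidney (adjusted p = 0.343), LOC124003295 0.45 ± 0.35 (adjusted p = 0.629) and rasgrp3 0.46 ± 0.27 (adjusted p = 0.504). Females 2, 4 and 5 and males 7 and 9 carry the same number in both tissues, so muscle and head kidney may not be independent samples of the sexes.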

How the data were processed

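Messenger RNA was measured in single fish, grouped by the stage, sex and tissue of the sample labels. The authors deposited unscaled expected counts per gene, in 1 table per sex. Salmon 1.8.0, R 4.3.3 and Trim Galore 0.6.4 stand in the submitters' processing notes, with no role given; genome build and annotation are not given in the sources used here. In the 7 libraries 31.9% of values were not whole, and the expected counts were rounded. The smallest chi-square per gene between libraries of a group was 37.5, so no pair was within sampling noise.

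Tests used edgeR 4.0.16 in R 4.3.3 (filterByExpr, TMM scaling, 2-sided quasi-likelihood F test, Benjamini-Hochberg over all genes tested, called under 0.05) and were tested on simulated data; limma 3.58.1 and DESeq2 1.42.0 served as alternatives. In data simulated for the 7 libraries, 35.8% of 4-fold, 97.1% of 16-fold and 100% of 64-fold changes were called. Of 166 calls there, 11 were false. The 200 changed genes all lay above a minimum mean CPM, and they outnumbered the 16 genes called in the real fit. Recovery in the real fit may thus be lower, above all for genes with few counts. SE is the log2 difference over the root of F. CPM used the scaling of each stage's own fit, and gonads library size only. A gene at 0 throughout a group was given 3 counts over that group for a lower bound; intervals are exact binomial at 95% and cover counting error only.

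The members, lists and genes were chosen with earlier results of these data known. The rule named, among called genes with a symbol, per direction the 8 largest differences without overlap whose mean log2 CPM reached 2, the 5 smallest adjusted p per direction, up to 2 called members per list and direction or else the member with the smallest p, and a set of key genes; LOC genes with a description would also have been named. All called LOC genes, genes with an adjusted p between 0.05 and 0.10, further list members and the complement list were picked after their values were seen. The reference table, of assembly OgorEven_v1.0, gave which genes are neighbours; it held 40754 of the 40756 genes.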

Additional observations from a re-analysis of the deposited data

Results flagged for a closer look

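In 3 of 100 checks of single genes and library totals among the 4 spawning females, 1 fish stood far from the other 3; chance gives about 1 in 20 such cases. The gene myf5 was at 43.0 CPM in female 5, against 2.05 to 4.02 CPM in the other females. The gene obscnb was at 269 CPM in female 4, against 40.8 to 67.4 CPM in the other females. The gene igf1 was at 0.0559 CPM in female 2, which is a single count, and at 0 in the other females. The males, 3 in number, were too few for this check.

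For 3 genes the sex difference itself differed between spawning and ocean muscle in the edgeR quasi-likelihood test of the interaction. The log2 difference of differences was -3.14 for c7b, -6.56 for LOC124024361 and 4.42 for LOC124044151. Without spawning male 7 or without spawning male 8 this test called no gene, and it called 55 without male 9.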

How the results depend on the processing

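No paired analysis was possible because the spawning females carry the numbers 2 to 5 and the spawning males 7 to 9. The 16 calls of the spawning comparison became 15 with RLE scaling, 22 with library size only, 194 without the filter on low counts, 695 with DESeq2, 4 with limma-voom, 730 in a fit of all 24 muscle libraries and 1554 without river male 6; leaving out 1 library gave 3 to 104. The 3 ocean calls became 7 without the filter, 69 with DESeq2, 1 with limma-voom and 2 to 8 with 1 library left out. The 2 river calls became 4 with library size only, 4 without the filter, 62 with DESeq2 and 2 to 12 with 1 library left out. The 2 head kidney calls became 624 with DESeq2, 0 with limma-voom (2689 genes at an unadjusted p under 0.05) and 0 to 1 with 1 library left out. The 3 interaction calls became 19 without the filter, 373 with DESeq2, 5 with limma-voom, 12 in the fit of 24 libraries and 0 to 55 with 1 library left out; of the 3 genes themselves, limma-voom called 2 and the fit of 24 libraries 0. The cause of these shifts was not tested.

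Of single genes, over 93 genes and 14 alternatives, 1084 values kept direction and side of the threshold, 65 lost and 135 gained a call, and 7 changed sign, in genes that were not called. LOC124008727 gave 0.59 with limma-voom and -0.88 to 0.90 with 1 fish left out (lowest without male 9, highest without male 7). With 1 fish left out, slc45a2 lay between -0.0087 (without female 4) and 1.24 (without female 5), and col2a1b between -3.01 (without female 5) and 0.059 (without male 7). LOC124025633 gave -0.32 without female 4, -0.49 without male 7, -0.53 without male 9 and 9.61 without male 8. The number of fish, 4 and 3, limits the tests, and how far depth does was not tested; LOC genes without a description remain unnamed.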
